A study of Danio rerio with 6 samples.

Results

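The genes of the motile axoneme were compared between wild-type (wt) and *tulp1*-dKO zebrafish. They were chosen by name: every listed gene whose name begins with *dnah*, *dnai*, *dnal*, *dnaaf*, *rsph*, *cfap*, *drc* or *spag*, whether in small letters or capitals, together with *ccdc39*, *ccdc40* and *ccdc103*. Of the 32520 genes listed, 68 had such a name, and the 57 whose 6 samples averaged 0.5 TPM or more are described here. TPM is a transcript level that is corrected for gene length and scaled to the same total in each library. RNA was sequenced from the dissected heads of larvae of the AB strain at 4 dpf (days post-fertilization), in 3 wt samples and 3 *tulp1*-dKO samples. The *tulp1*-dKO larvae carry frameshift deletions made with CRISPR-Cas9 in both *tulp1a* and *tulp1b*, and came from crossing 1 *tulp1a* mutant line with 1 *tulp1b* mutant line, so each mutation is seen in a single line. The labels do not say whether the samples of a group came from separate clutches, and p-values therefore measure only the spread between these samples.

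The axoneme is the microtubule core of a cilium. In motile cilia, rows of dynein arms on a ring of doublet microtubules make the doublets slide along each other. Outer arms set much of the beat frequency, and inner arms shape the bend. Radial spokes carry signals from the central pair to the arms, the nexin-dynein regulatory complex links neighbouring doublets, and a molecular ruler of Ccdc39 and Ccdc40 sets the spacing of the inner arms and spokes. Microtubule inner proteins line the inside of the doublets. Dynein arms are put together in the cytoplasm by assembly factors before they reach the cilium. In the head of a zebrafish larva, such genes are used by multiciliated cells of the nasal pits and by ciliated cells lining the brain ventricles, and several are also used by the hair cells of the ear and lateral line. The photoreceptor cilium, from which the outer segment grows, has doublets but does not beat.

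The 57 members together summed to 384 to 397 TPM in wt heads and 382 to 396 TPM in *tulp1*-dKO heads. The 47 placed in a motile axoneme complex or its assembly summed to 226 to 229 TPM and 223 to 227 TPM. The other members are of uncertain place or not parts of the motile axoneme. A few abundant members weigh most in these sums, such as *spag7* (mean 69.4 TPM, not an axoneme part) and *cfap20* (53.7 TPM). The median of the mean levels of the 47 was 2.05 TPM. Among the members, 2 dynein heavy chains stood out in opposite directions. *dnah5l*, an outer arm heavy chain, was 3.12-fold higher in *tulp1*-dKO zebrafish, and *dnah2*, an inner arm heavy chain, was 2.47-fold lower. No other member passed an adjusted p of 0.05 with or without a minimum fold change. These 2 members are 3.51% of the 57, against 1.32% of the 22824 genes tested, of which 83 (0.364%) were higher and 219 (0.96%) lower. With no minimum fold change the same 2 members passed, against 1.89% of all genes. A gene passed when it differed 2-fold or more with an adjusted p no higher than 0.05, by limma on log2(TPM + 0.1) values, adjusted after Benjamini and Hochberg across the whole table. On this scale the added 0.1 TPM draws the difference of a gene with low TPM towards 0. The difference is between means of log2 values, so it can also come out smaller or larger than the ratio of mean levels.

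The shares of members under looser criteria were near or under those of all genes. At an unadjusted p of at most 0.05 there were 8 members (14.0%), against 17.1% of all genes tested. Of these, 6 were higher (10.5%, background 10.1%) and 2 lower (3.51%, background 6.97%). The wt and *tulp1*-dKO values did not overlap in 11 members (19.3%), against 23.5% of all genes. They were higher in *tulp1*-dKO zebrafish in 8 (14.0%, background 14.6%) and lower in 3 (5.26%, background 8.86%). The log2 fold change, a difference between means of log2 values, was above 0 in 33 members and below 0 in 24, and the share above 0, 57.9%, was near the 58.1% of all genes. The median log2 fold change was 0.04 over the members and 0.05 over all genes tested. Of the 57, 46 lay within 0.5 of 0 on the log2 scale and 3 lay beyond 1. Of the 22824 genes tested, 18791 lay within 0.5 of 0 and 1513 beyond 1.

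**Figure D1:**
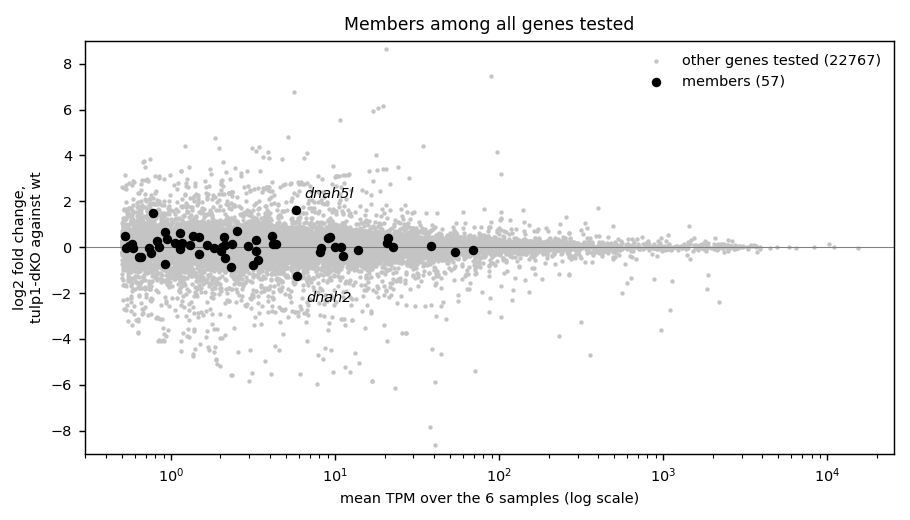
Each point is 1 gene, with the mean TPM over the 6 samples on the horizontal log axis and the log2 fold change of *tulp1*-dKO against wt on the vertical axis; black points are the 57 members and grey points the other genes tested. The members lie in the lower part of the range of levels and, like most other genes, close to 0. The exceptions are *dnah5l* at 1.60, *dnah2* at −1.27 and 1 gene of very low level at 1.47.

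Low levels limit what could be seen. The median of the members' mean levels was 2.12 TPM, against 9.59 TPM over all genes tested, 15 members were under 1 TPM and 10 were at 10 TPM or more. The median standard error of the log2 fold change was 0.29 for the members and 0.16 for all genes. The 95% confidence interval of the change lay wholly within a fold change of 2 in either direction for 29 members (50.9%), against 73.8% of all genes. For the remaining members that did not pass the test, the interval reached beyond that size in at least one direction.

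The 2 targeted genes differed in the direction of the labels. *tulp1a* was at 24.7 ± 0.839 TPM in wt heads and 15.4 ± 0.899 TPM in *tulp1*-dKO heads (mean ± SD, n = 3 each), and *tulp1b* at 11.6 ± 1.70 and 2.36 ± 0.350 TPM. Both genes were lower in each of the 3 *tulp1*-dKO samples than in any wt sample. TPM per gene do not show the deletions themselves. The paper reports both genes in all photoreceptor types, so their levels cannot tell the mutations from a loss of photoreceptor RNA. The adjusted p by limma of *tulp1a*, 0.0201, was at most 0.05 in 10 of 16 alternatives, and that of *tulp1b*, 0.0024, in all 16. The retina differed strongly between the groups: the summed level of 27 rod and cone genes was 17103 to 18676 TPM in wt heads and 3825 to 6958 TPM in *tulp1*-dKO heads, with 25 of the 27 lower by the sign of the log2 fold change and 17 past both thresholds. Other cell types that carry cilia were measured by marker lists. The 17 hair cell genes tested summed to 374 to 394 TPM in wt heads and 326 to 374 TPM in *tulp1*-dKO heads, with 10 of 17 lower and none past both thresholds. The 11 olfactory neuron genes summed to 129 to 144 TPM in wt heads and 109 to 120 TPM in *tulp1*-dKO heads, without overlap, with 10 of 11 lower and again none past both thresholds. In each of these 2 lists 1 gene passed the adjusted p alone, both lower: *cdh23*, of the hair cell tip link, at a log2 fold change of −0.83 and *ompa*, of olfactory neurons, at −0.71 (adjusted p 0.00874 and 0.0299 by limma). In these lists no gene was at 0 in all 6 samples. A second entry named *cdh23* (ENSDARG00000094454) averaged 0.298 TPM, below the minimum level, and was not tested. It went the other way: its *tulp1*-dKO values (0.57, 0.28 and 0.5 TPM) all lay above its wt values (0.12, 0.21 and 0.11 TPM). Genes of digestive tissue ranged more widely within a group, from 1371 to 2298 TPM in wt heads and from 1105 to 4878 TPM in *tulp1*-dKO heads. In such bulk samples, fewer cells of a type and less RNA per cell cannot be told apart, and the part of these lists in the results for the axoneme was not tested.

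Dynein heavy chains are the motor subunits. Of the 8 tested, *dnah5l* (ENSDARG00000056888) showed the clearest difference. Its level was 2.70, 2.93 and 2.76 TPM in the 3 wt libraries and 9.42, 7.86 and 8.88 TPM in the 3 *tulp1*-dKO libraries. The lowest *tulp1*-dKO sample was well above the highest wt sample, and the samples of each group lay close together. The log2 fold change was 1.60 (SE 0.13, 95% interval 1.29 to 1.92), with an adjusted p of 0.0026 by limma. It passed both thresholds in all 16 alternative analyses, at log2 fold changes of 1.35 to 1.68 and adjusted p from 0.0023 to 0.0343 by limma.

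*dnah2* (ENSDARG00000087352) moved the other way. It was at 9.69, 6.56 and 8.84 TPM in wt heads and at 2.85, 3.31 and 3.99 TPM in *tulp1*-dKO heads. The groups did not overlap. In TPM the wt samples were spread more widely than the *tulp1*-dKO samples, but as a ratio of highest to lowest the spreads were similar (1.48 and 1.40). The log2 fold change was −1.27 (SE 0.20, 95% interval −1.74 to −0.81), with an adjusted p of 0.0299 by limma. This call was less firm than that of *dnah5l*: it held in 8 of 16 alternatives and was lost whenever any 1 of the 6 samples was left out, with adjusted p from 0.0599 to 0.138 by limma and log2 fold changes from −1.44 to −1.16. Without the variance trend the adjusted p was 0.0561.

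The other heavy chains did not pass the test. *dnah11* (ENSDARG00000094282), an outer arm chain known in the mouse for its role in left-right asymmetry, was the most abundant in both groups. It measured 13.9, 14.1 and 10.5 TPM in wt heads and 8.79, 10.7 and 9.42 TPM in *tulp1*-dKO heads. The lowest wt sample fell within the *tulp1*-dKO range, and the log2 fold change of −0.40 (SE 0.15) had an adjusted p of 0.247 by limma. *dnah7*, an inner arm chain, was at 1.49, 2 and 2.17 TPM in wt heads and at 2.96, 4.03 and 2.47 TPM in *tulp1*-dKO heads. Its groups did not overlap, but the log2 fold change of 0.70 (SE 0.25) had an adjusted p of 0.219 by limma. The remaining chains were low in both groups: *dnah9l* averaged 1.08 and 1.25 TPM, *dnah5* 0.740 and 0.903 TPM, *dnah12* 0.603 and 0.573 TPM and *dnah1* 0.550 and 0.560 TPM in wt and *tulp1*-dKO heads.

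**Figure D2:**
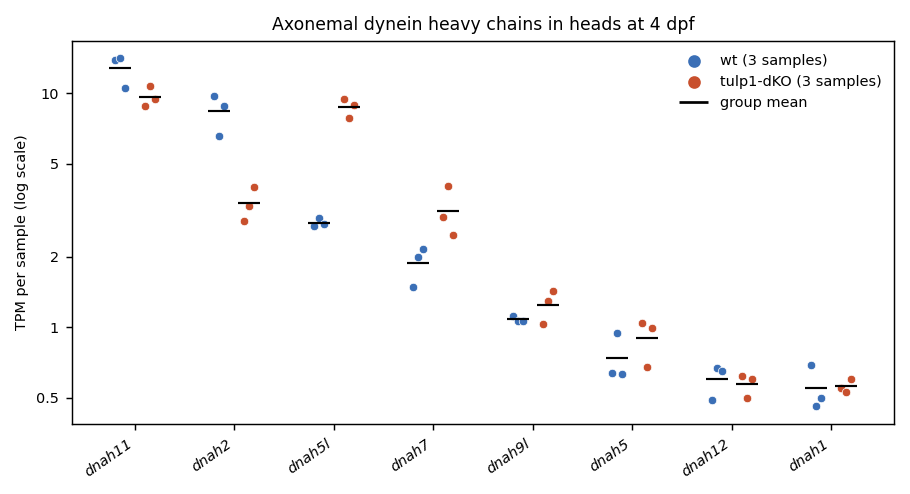
TPM per sample on a log axis for the 8 axonemal dynein heavy chains, ordered by their mean in wt; points are the 3 wt and 3 *tulp1*-dKO samples and black bars are group means. *dnah5l* is separated upward (from 2.70 to 2.93 TPM up to 7.86 to 9.42 TPM) and *dnah2* downward (6.56 to 9.69 TPM and 2.85 to 3.99 TPM).

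The pool of heavy chain transcripts was of almost the same size in both groups. The 8 chains summed to 28.9 ± 1.81 TPM in wt heads and 28.2 ± 0.851 TPM in *tulp1*-dKO heads (mean ± SD, n = 3 each), and the groups overlapped. Its make-up was different. *dnah5l* was 9.72 ± 0.808% of the pool in wt and 31.0 ± 3.70% in *tulp1*-dKO zebrafish, while *dnah2* was 29.0 ± 5.38% and 12.0 ± 1.86%. *dnah11* was 44.3 ± 5.24% and 34.2 ± 2.57%. By mean level, the order in wt was *dnah11*, *dnah2*, *dnah5l* and *dnah7*, with no overlap between neighbours. In *tulp1*-dKO heads it was *dnah11*, *dnah5l*, *dnah2* and *dnah7*, and there *dnah11* and *dnah5l* overlapped, as did *dnah2* and *dnah7*. These shares restate the levels of the same genes and were not tested separately. *dnah5* and *dnah5l* carry related names, as do *dnah9*, *dnah9l* and *dnah11*. How well reads shared by similar genes were divided in the counting with RSEM is uncertain.

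The genes next to both called heavy chains were looked at by their order in a RefSeq table (assembly GRCz12tu, another build than that of the files). Only the 17462 of the 22824 tested genes that matched it by name could be placed, so nearer neighbours may be missing. Among the 5 tested genes on each side of *dnah2*, on chromosome 7, none passed a threshold, and log2 fold changes ran from −0.18 to 0.43. *efnb3b*, an ephrin gene whose span overlaps that of *dnah2* in this table, was the one at 0.43, with groups that did not overlap and an adjusted p of 0.137 by limma. Around *dnah5l*, on chromosome 24, none of the 10 neighbours passed both thresholds, and log2 fold changes ran from −0.20 to 0.82. The one at 0.82 was *cdk5*, a kinase of neurons, which passed the adjusted p alone (0.0311 by limma, means 8.30 and 14.6 TPM in wt and *tulp1*-dKO heads). *agap3*, whose span overlaps that of *dnah5l*, was at −0.06. Other genes of this table that overlap the heavy chains had no match by name among the genes tested. They are the protein-coding LOC571431 and LOC137489267 at *dnah5l* and the long non-coding RNA LOC137490268 at *dnah2*. The values of *tulp1*-dKO zebrafish lay above those of wt, without overlap, in 4 of the 10 neighbours of *dnah5l* and in 2 of the 10 of *dnah2*, against 14.6% of all genes. Whether strand was used in the counting is not given in the sources used here, so reads of overlapping genes may not be fully separated. In the same table *tulp1b* lies on chromosome 6. *tulp1a* had no match.

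**Figure D3:**
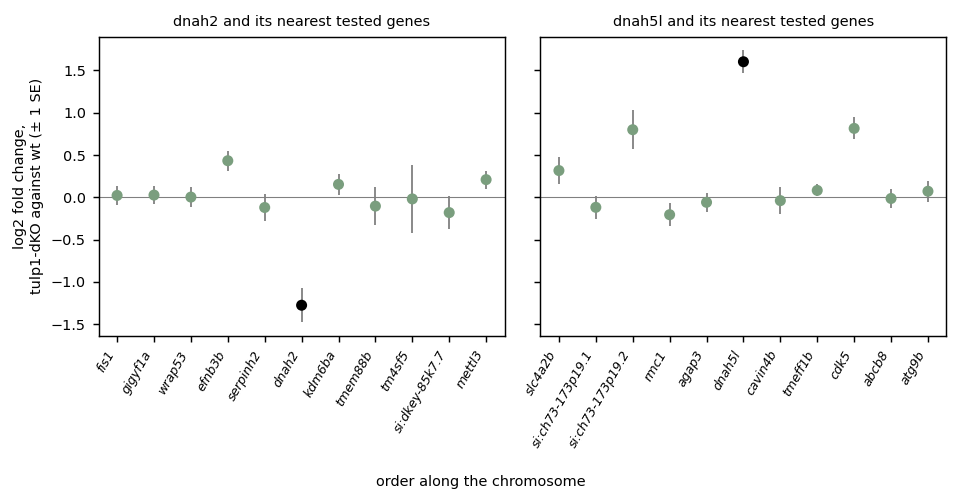
Log2 fold change of *tulp1*-dKO against wt (± 1 SE) for *dnah2* (left, black) and *dnah5l* (right, black) and for 5 tested neighbours on either side (green), in chromosome order. Neighbours of *dnah2* lie between −0.18 and 0.43 and those of *dnah5l* between −0.20 and 0.82, nearer 0 than the 2 heavy chains.

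None of the smaller subunits of the outer arm passed the test. Intermediate chains anchor the motor to the doublet and light chains regulate it. The light chain gene *dnal4b* averaged 10.8 ± 0.842 TPM in wt heads and 10.9 ± 1.38 TPM in *tulp1*-dKO heads, a log2 fold change of 0.00 (SE 0.13). *dnal1* (ENSDARG00000034042) was at 8.55, 7.11 and 9.11 TPM in wt heads and 8.07, 9.02 and 7.29 TPM in *tulp1*-dKO heads, a log2 fold change of −0.02 (SE 0.14). The groups overlapped in both. A second entry named *dnal1* (ENSDARG00000097505) was listed at 0, 0 and 0.12 TPM in wt heads and at 4.56, 0 and 0 TPM in *tulp1*-dKO heads. It was thus seen in essentially 1 sample, its log2 fold change of 1.47 had an SE of 1.74, and without that sample the value was −0.38. The intermediate chains *dnai1.2* and *dnai2b* and the light chain *dnal4a* had log2 fold changes of 0.44, −0.44 and 0.14, with overlapping groups. Over all 10 outer arm genes, 7 had a log2 fold change above 0 and 3 below, with a median of 0.16. Their summed level was 40.9 to 45.5 TPM in wt heads and 44.3 to 51.2 TPM in *tulp1*-dKO heads, and without *dnah5l* it was 38.0 to 42.8 TPM and 35.4 to 41.7 TPM.

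In the inner arms, the difference in summed level lay in *dnah2*. The 6 genes summed to 15.2, 18.5 and 16.9 TPM in wt heads and to 12.4, 10.9 and 11.4 TPM in *tulp1*-dKO heads, without overlap. Without *dnah2*, the other 5 summed to 5.46, 11.9 and 8.02 TPM and to 9.51, 7.6 and 7.4 TPM, and the groups overlapped. The median log2 fold change of the 6 was −0.01. *dnali1*, an inner arm light chain, was at 2.23 ± 0.537 TPM in wt heads and 2.46 ± 0.609 TPM in *tulp1*-dKO heads. DNAI3, an inner arm intermediate chain, varied widely between samples. It measured 1.07, 6.62 and 1.91 TPM in wt heads and 2.45, 0.770 and 1.06 TPM in *tulp1*-dKO heads, with wt sample 2 far above the rest.

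The assembly factors build the arms before transport. None of the 8 passed the test, and the groups overlapped for every one. The most abundant, *spag1a*, was at 23.4, 24.0 and 20.4 TPM in wt heads and 23.3, 20.9 and 23.2 TPM in *tulp1*-dKO heads, a log2 fold change of −0.01 (SE 0.10). *cfap298*, known in zebrafish from the kurly mutant, averaged 14.4 ± 1.43 and 13.3 ± 2.80 TPM. The smallest p was that of *dnaaf1*, whose loss gives kidney cysts and curved bodies in zebrafish. It was at 0.710, 1.65 and 1.21 TPM in wt heads and at 0.480, 0.710 and 0.750 TPM in *tulp1*-dKO heads. The groups overlapped, and the log2 fold change of −0.74 (SE 0.41) had an adjusted p of 0.424 by limma. *dnaaf4* had the highest value, 0.62 (SE 0.39), on the log2 scale. *dnaaf2*, *ccdc103*, *cfap300* and *spag1b* lay between 0.02 and 0.19. The summed level of the 8 was 42.9 to 48.3 TPM in wt heads and 42.0 to 45.3 TPM in *tulp1*-dKO heads.

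**Figure D4:**
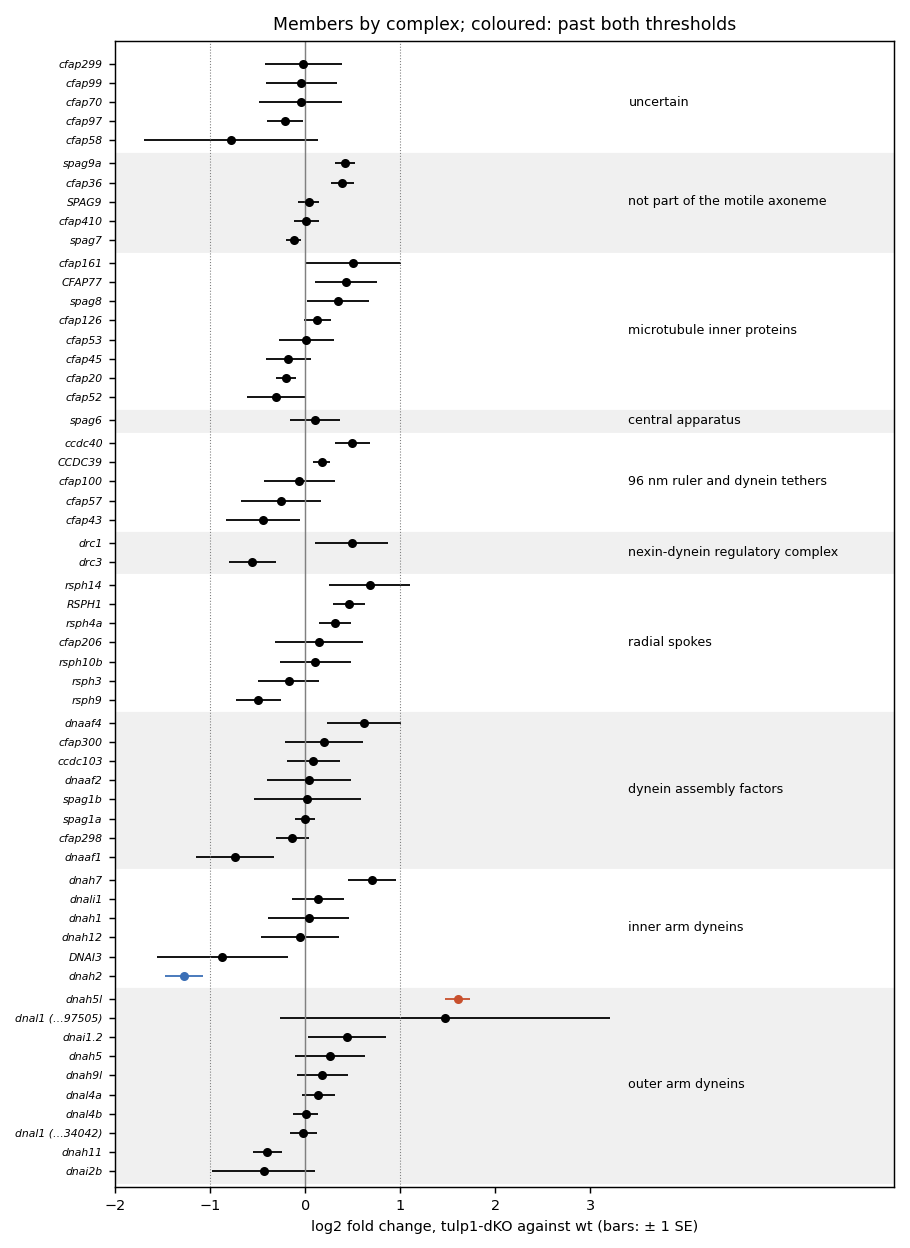
Log2 fold change of *tulp1*-dKO against wt (± 1 SE, horizontal axis) for all 57 members, grouped by complex, with dotted lines at −1 and 1 and the last digits of the Ensembl identifier where 2 genes share a name. Only *dnah5l* (red, higher) and *dnah2* (blue, lower) passed both thresholds. The group of uncertain place has all 5 members below 0, down to −0.78 for *cfap58*.

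None of the radial spoke genes passed the test, and their summed level, which was not tested, was slightly higher in *tulp1*-dKO heads. All *tulp1*-dKO values lay above those of wt in 2 of the 7, against 14.6% of all genes. The spoke head gene RSPH1 was the most abundant and had the smallest p of the 7. It was at 6.07, 8.76 and 8.59 TPM in wt heads and at 10.04, 10.43 and 11.56 TPM in *tulp1*-dKO heads. Every *tulp1*-dKO sample was above every wt sample, and the log2 fold change of 0.46 (SE 0.17) had an adjusted p of 0.221 by limma. *rsph4a*, also of the spoke head, averaged 2.95 ± 0.407 and 3.67 ± 0.188 TPM without overlap, a log2 fold change of 0.31 (SE 0.17). *rsph9*, another protein of the spoke head, had a value of the opposite sign, with 2.68, 2.83 and 2.02 TPM in wt heads and 1.39, 1.85 and 2.03 TPM in *tulp1*-dKO heads, and the groups overlapped by 1 sample. In the stalk and base, *rsph14*, *rsph3* and *cfap206* had log2 fold changes of 0.68 (SE 0.43), −0.18 (SE 0.32) and 0.14 (SE 0.46) with overlapping groups, and *rsph10b* of the spoke head was at 0.10 (SE 0.37). The 7 summed to 16.7, 19.7 and 18.3 TPM in wt heads and 20.9, 21.1 and 22.4 TPM in *tulp1*-dKO heads, without overlap, and RSPH1 made up the largest part of this sum in every sample.

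None of the 5 ruler and tether genes passed the test, and their median log2 fold change was −0.06. CCDC39 was at 20.6, 18.8 and 18.9 TPM in wt heads and at 22.3, 21.2 and 22.1 TPM in *tulp1*-dKO heads. Its partner *ccdc40* was at 3.61, 2.64 and 3.98 TPM and at 4.94, 4.58 and 4.82 TPM. Both were higher in *tulp1*-dKO heads without overlap, as were 14.6% of all genes. The log2 fold changes were 0.17 (SE 0.09) and 0.49 (SE 0.18), with adjusted p of 0.393 and 0.235 by limma. Although their products act as a pair, CCDC39 was listed at 5.86 times the TPM of *ccdc40* on average in wt and at 4.58 times in *tulp1*-dKO zebrafish. The ratio was lower in every *tulp1*-dKO sample (4.51 to 4.64) than in every wt sample (4.74 to 7.13), by a narrow margin. Its highest value was that of wt sample 2, and the ratio was not tested. The inner arm tethers were low. *cfap43* was at 0.670, 0.890 and 0.700 TPM in wt heads and 0.560, 0.480 and 0.530 TPM in *tulp1*-dKO heads. It was lower without overlap, as were 8.86% of all genes, with a log2 fold change of −0.45 (SE 0.39). *cfap57* and *cfap100* were at −0.26 and −0.06 with overlap. The 5 genes summed to 24.3 to 27.2 TPM in wt heads and 28.2 to 29.4 TPM in *tulp1*-dKO heads, most of it CCDC39. This sum was not tested.

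The 2 measured subunits of the nexin-dynein regulatory complex had values of opposite sign. *drc3* was at 3.98, 4.44 and 3.56 TPM in wt heads and at 1.83, 3.13 and 3.32 TPM in *tulp1*-dKO heads. The groups were apart, with the wt samples higher, and the log2 fold change of −0.56 (SE 0.25) had an adjusted p of 0.324 by limma. *drc1* averaged 1.08 ± 0.240 and 1.65 ± 0.815 TPM, with overlap and a log2 fold change of 0.49 (SE 0.38). The central apparatus was represented by *spag6* alone. It was at 1.44, 2.52 and 2.23 TPM in wt heads and 1.93, 2.48 and 2.12 TPM in *tulp1*-dKO heads, a log2 fold change of 0.10 (SE 0.26), and the *tulp1*-dKO values lay within the wt range.

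Among the microtubule inner proteins, *cfap20* was by far the most abundant. It was at 58.8, 50.1 and 64.0 TPM in wt heads and 47.9, 49.9 and 51.7 TPM in *tulp1*-dKO heads. The highest *tulp1*-dKO sample passed the lowest wt sample, and the log2 fold change of −0.20 (SE 0.11) had an adjusted p of 0.401 by limma. *cfap126*, also called flattop in the mouse, averaged 4.2 ± 0.456 and 4.58 ± 0.0814 TPM. *cfap45* and *cfap52*, which line the doublet and act in ciliary beating, had log2 fold changes of −0.18 (SE 0.24) and −0.31 (SE 0.31). *cfap53*, needed for left-right asymmetry in zebrafish, was at 0.01 (SE 0.29). CFAP77, *spag8* and *cfap161* had values of 0.43, 0.34 and 0.50, each with overlap. The median log2 fold change of the 8 was 0.07, with 5 above 0 and 3 below.

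**Figure D5:**
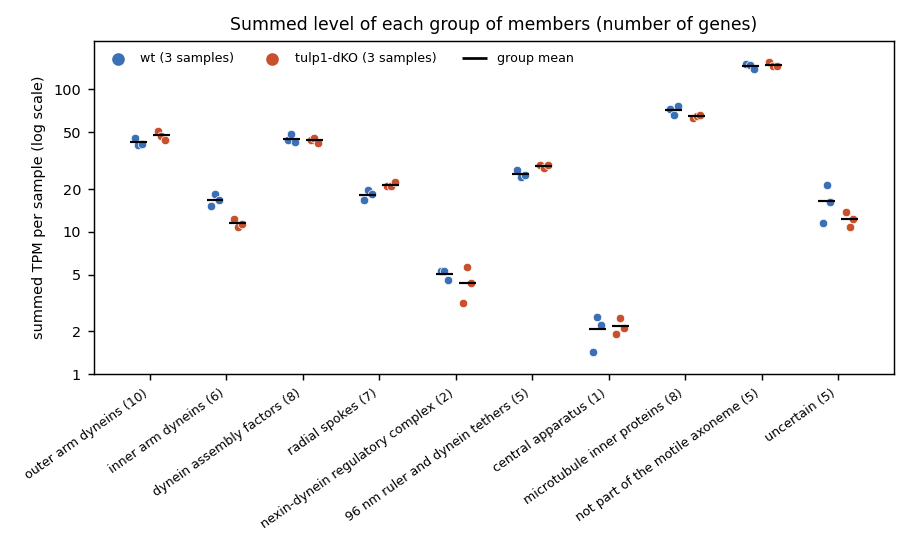
Summed TPM per sample on a log axis for each group of members, with the number of genes in parentheses; points are samples and black bars are group means. The 2 genotypes are separated for the inner arm dyneins (15.2 to 18.5 TPM against 10.9 to 12.4 TPM, wt first), the radial spokes (16.7 to 19.7 TPM against 20.9 to 22.4 TPM) and the ruler with its tethers (24.3 to 27.2 and 28.2 to 29.4 TPM), and overlap in the other groups. None of these sums was tested.

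A group of 5 members shares the name prefixes, but their products are not parts of the motile axoneme. They were the most abundant group, with a median of their mean levels of 21.1 TPM, and the best measured, with a median SE of 0.11. *spag9a*, a scaffold for kinase signalling and vesicle transport, was at 7.24, 7.92 and 7.98 TPM in wt heads and 10.6, 9.80 and 10.5 TPM in *tulp1*-dKO heads. *cfap36*, whose product binds the small GTPase ARL3 in mammals, was at 19.42, 18.03 and 17.18 TPM and at 27.2, 21.3 and 23.4 TPM. Both were higher in *tulp1*-dKO heads without overlap, as were 14.6% of all genes. Their log2 fold changes of 0.42 (SE 0.11) and 0.39 (SE 0.12) had adjusted p of 0.118 and 0.167 by limma. The gene listed as SPAG9 averaged 37.9 ± 4.08 and 38.8 ± 3.48 TPM. *cfap410*, mutated in human retinal and skeletal disease, averaged 10.01 ± 1.06 and 10.1 ± 0.920 TPM. *spag7*, the most abundant of all 57, was at 77.5, 72.2 and 67.5 TPM in wt heads and 65.4, 68.4 and 65.3 TPM in *tulp1*-dKO heads, a log2 fold change of −0.12 (SE 0.08).

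Another 5 members were not placed in a complex, and all had lower means in *tulp1*-dKO zebrafish with overlapping groups. *cfap97*, the most abundant of them, was at 8.44, 6.82 and 11 TPM in wt heads and 7.69, 6.48 and 8.07 TPM in *tulp1*-dKO heads, a log2 fold change of −0.22 (SE 0.19). *cfap58*, which had the smallest p of the 5 after *cfap97* and is named here after its values were seen, was at 0.8, 10.25 and 2.27 TPM in wt heads and at 3.65, 0.820 and 1.16 TPM in *tulp1*-dKO heads. Its wt samples differed 12.8-fold between lowest and highest, and those of DNAI3 6.19-fold, with wt sample 2 the highest for both. *cfap70*, *cfap99* and *cfap299* had log2 fold changes of −0.05, −0.05 and −0.02.

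At the minimum level, *cfap161* (mean 0.525 TPM) and *cfap70* (0.530 TPM) were just inside and *dnah6* (0.498 TPM) and *dnaaf3l* (0.463 TPM) just outside. The 11 genes below it included 5 heavy chains. *dnah9* was listed at 0, 0.32 and 0.14 TPM in wt heads and at 0.51, 0.34 and 0.44 TPM in *tulp1*-dKO heads, and the intermediate chain gene *dnai2a* at 0, 0.03 and 0.03 TPM and at 0.14, 0.16 and 0.17 TPM. For both, every *tulp1*-dKO value lay above every wt value, as in 14.6% of the genes tested. Both belong to the outer arm, but so do *dnai1.1* and a second entry named *dnah11*, whose groups overlapped. The other heavy chains below the minimum were *dnah3*, DNAH10, *dnah6* and this second *dnah11* entry (ENSDARG00000077384), all with overlapping groups. None of the 11 was tested.

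Genes of the motile cilium with other names were read from the same fit. Of 45 tested, 17 had a log2 fold change above 0 and 28 below, with a median of −0.10. Among them 1 passed both thresholds and was lower, against 1.32% of all genes in either direction and 0.96% lower. This was *ribc1*, whose product lies inside the doublet microtubules. It was at 13.6, 10.8 and 12.3 TPM in wt heads and at 4.65, 6.16 and 5.78 TPM in *tulp1*-dKO heads. The groups were well separated, and the log2 fold change of −1.13 (SE 0.15) had an adjusted p of 0.0187 by limma. The call held in 9 of 16 alternatives and was lost when any 1 of the 6 samples was left out, with adjusted p from 0.0527 to 0.103 by limma. *tekt2* and *nme8* had larger log2 fold changes and no overlap but did not pass the adjusted p. *tekt2* was at 1.42, 2.33 and 1.73 TPM in wt heads and 0.35, 0.59 and 0.55 TPM in *tulp1*-dKO heads. Its log2 fold change was −1.69 (SE 0.35, adjusted p 0.0692 by limma). *nme8* went the other way, at 1.68 (SE 0.50, adjusted p 0.157 by limma), with wt values from 5.38 to 19.3 TPM. In 9 of the 45 the *tulp1*-dKO values lay below those of wt without overlap, and in 2 above, against 8.86% and 14.6% of all genes. None of the 4 tested genes of the docking complex, which fixes outer arms to the doublet, passed the test.

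None of the 10 tested transcription factors that switch on the motile cilium programme passed the thresholds. Of these, 6 had a log2 fold change above 0 and 4 below, with a median of 0.08. The smallest p was that of *myb*, at 13.8, 14.0 and 15.0 TPM in wt heads and 19.4, 19.4 and 16.9 TPM in *tulp1*-dKO heads. Its log2 fold change of 0.38 (SE 0.10) had an adjusted p of 0.130 by limma. *foxj1b*, of the Foxj1 family of master regulators, was at 4.00, 4.35 and 4.64 TPM in wt heads and 3.90, 3.96 and 3.76 TPM in *tulp1*-dKO heads. It was lower in every *tulp1*-dKO sample by a small amount, and the log2 fold change of −0.15 (SE 0.14) had an adjusted p of 0.624 by limma. *foxj1a* was at 1.11, 1.02 and 1.33 TPM and at 0.870, 1.30 and 1.22 TPM, a log2 fold change of −0.04 (SE 0.29).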

How the data were processed

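HISAT2 was used by the authors to map reads to GRCz11 and RSEM to count them, before TPM per gene were deposited for each of the 6 samples. The deposited TPM keep no read counts, so depth is unknown and the error is the spread between 3 samples per group. DESeq2, which the authors used, works on counts and was not run here. Genes averaging 0.5 TPM or more were fitted as log2(TPM + 0.1) with limma 3.58.1 (lmFit, eBayes with trend) in R 4.3.3, comparing *tulp1*-dKO with wt, and p-values were adjusted (Benjamini-Hochberg) over the 22824 genes tested. An exact two-sided permutation test of 3 against 3 samples cannot go below p = 0.1, so no such test of single values is given. The fit was also run on simulated data with planted changes larger than the fold threshold, which says little about the smaller changes of most members.

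The genes, their sorting into complexes from general knowledge, and the marker lists (rods and cones, hair cells, olfactory neurons, digestive tissue, other motile cilium genes, ciliogenesis factors) were chosen with earlier results of these data known. Genes named by rule were those past the adjusted p, the most abundant and the one of smallest p in each complex, and those with a shared name, with *tulp1a*, *tulp1b*, *foxj1a* and *foxj1b* outside the members. Others were named to describe each complex or list after their values were seen. Gene order came from a RefSeq table of assembly GRCz12tu, matched by name to 17462 tested genes and to 54 of 56 member names, without coordinates. As alternatives, each sample was left out in turn, the replicate number was used as a block, eBayes was run without trend or with robust fitting, pseudocounts were 0.5 or 1, the minimum was dropped or set to 2 TPM, and values were rescaled by quantiles, by median ratios or to the total without the 50 top genes. Tables and plots used Python 3.11.15, pandas 2.3.3, numpy 2.4.6 and matplotlib 3.10.9.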

Additional observations from a re-analysis of the deposited data

How the results depend on the processing

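The count of members past both thresholds was 2 in the analysis reported and fell to 1, *dnah5l* alone, with eBayes without trend (1), with the replicate number as a block (1) and in every analysis that left out 1 sample (1 to 1). It stayed at 2 in the others and when only names in lower case were counted. Over all genes the count was 302, with 134 under the replicate block, 99 to 226 when 1 sample was left out and 950 with an unadjusted p of at most 0.05 in place of the adjusted p. For motile cilium genes outside the name rule it was 1, with 2 by eBayes without trend, 0 under the block, 0 to 1 when 1 sample was left out (never *ribc1*) and 3 with the unadjusted p (*ribc1*, *tekt2* and *nme8*). Leaving out a sample or adding a block leaves fewer degrees of freedom, while eBayes without trend keeps the same samples and design. The cause of these moves was not tested. Over the named genes and settings, 8 values, all of *dnah2*, lost the call by both thresholds without changing sign, and the other 309 kept their side of the combined thresholds. By the adjusted p alone *tulp1a*, whose fold change is under 2, also changed side: it went from 0.0201 to 0.0979 under the replicate block and to 0.0487 to 0.108 when 1 sample was left out, above 0.05 in 6 of 16 alternatives. The deviations of same-numbered wt and *tulp1*-dKO samples correlated at 0.03 across genes in all 3 pairs, and each sample correlated best with its own number, too weakly for the numbers to be taken as a pairing. Low levels limit the precision: 15 of 57 members are under 1 TPM.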
